A study of Mus musculus with 12 samples.

Results

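The genes of iron handling and the metallothioneins comprise 10 members: *Trf*, *Tfrc*, *Tfr2*, *Fth1*, *Ftl1*, *Slc40a1*, *Hamp*, *Hfe2*, *Mt1* and *Mt2*. They were taken by their symbols from the 20069 genes of the deposited mouse liver mRNA table. The table lists 8 of them under these symbols, *Hamp* as Hamp1 and *Tfr2* as Trfr2. All 10 passed the expression minimum of 8 reads per base pair (rpbp) in at least 1 sample, as did 10198 genes of the table.

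The livers came from C57BL/6 adult mice, aged 3 to 6 months, that had been kept for at least 2 weeks in a cycle of 12 hr of light and 12 hr of dark. There is no genotype or treatment group: by the labels, the samples differ in the time of collection and in the number of the replicate series. Livers were collected every 4 hr from ZT2 to ZT22 (ZT0 is lights on) in 2 series, giving 12 samples with n = 2 at each time point. Poly(A) RNA of the whole tissue was sequenced, so liver cells of all types contribute to each value. Nothing in the labels says how many animals gave a sample, and the p-values measure only the spread between these samples.

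Iron travels in plasma bound to transferrin (*Trf*), enters cells through the transferrin receptors (*Tfrc* and *Tfr2*), is stored in ferritin, a shell of heavy (*Fth1*) and light (*Ftl1*) chains, and leaves cells through ferroportin (*Slc40a1*). Hepcidin (*Hamp*) is the liver hormone that closes ferroportin, and hemojuvelin (*Hfe2*) is a co-receptor of the bone morphogenetic protein (BMP) signals that drive the *Hamp* gene. Metallothioneins (*Mt1* and *Mt2*) are small cysteine-rich proteins that bind zinc, copper and cadmium, and their genes respond to metals, glucocorticoids and inflammation.

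Much of this system is set by short RNA hairpins, the iron responsive elements, that iron regulatory proteins bind when iron is scarce. In a 5′ UTR the bound protein blocks translation, and in the 3′ UTR of *Tfrc* it protects the mRNA from decay. The hairpins are shown because they separate the members whose mRNA level is known to be under this control from those whose translation is. A search of the GENCODE transcripts of mm9 for a C, 5 bases, the loop CAGTGN and 5 bases pairing with those before the loop found 7 matches in 4 members. Capitals mark the bulged C and the CAGTG of the loop, with T standing for the U of the mRNA.
Fth1, 5′ UTR: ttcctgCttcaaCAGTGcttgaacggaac
Ftl1, 5′ UTR: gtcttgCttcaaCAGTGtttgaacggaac
Slc40a1, 5′ UTR: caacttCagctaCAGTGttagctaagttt
Tfrc, 3′ UTR, from base 3315: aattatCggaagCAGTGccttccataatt
Tfrc, 3′ UTR, from base 3694: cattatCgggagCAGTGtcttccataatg
Tfrc, 3′ UTR, from base 3759: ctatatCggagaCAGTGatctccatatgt
Tfrc, 3′ UTR, from base 3806: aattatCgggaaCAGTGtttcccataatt
The same pattern was present in the 5′ UTR of 17 of 22611 genes (0.0752%) and in the 3′ UTR of 109 (0.482%). The 4 matches in *Tfrc* lie between bases 3315 and 3834 of a transcript of 4890 bases.

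The promoters of the metallothionein and hepcidin genes are shown for their metal, BMP and STAT motifs. They come from a collection of RefSeq promoters (GRCm38.p6) that included 7 of the 10 members and left out *Trf*, *Slc40a1* and *Hfe2*. Each stretch is printed 5′ to 3′ on the strand of the gene, and positions are counted from the first transcribed base, +1. In *Mt1* and *Mt2* the capitals mark metal response elements, searched as TGCGCNC and TGCACNC on both strands. In the hepcidin genes they mark the BMP response element GGCGCC and the STAT motif TTCNNNGAA.
Mt1, chr8:94178939-94179118, plus strand: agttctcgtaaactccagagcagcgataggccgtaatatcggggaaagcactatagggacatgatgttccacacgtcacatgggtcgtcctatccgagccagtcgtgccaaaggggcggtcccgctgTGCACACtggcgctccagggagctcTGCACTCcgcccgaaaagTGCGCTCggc
Mt2, chr8:94172468-94172647, plus strand: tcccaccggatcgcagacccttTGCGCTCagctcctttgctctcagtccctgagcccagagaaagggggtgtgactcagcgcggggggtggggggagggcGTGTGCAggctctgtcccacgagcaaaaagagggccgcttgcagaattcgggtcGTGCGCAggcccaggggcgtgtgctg
Hamp, chr7:30944090-30944149, minus strand: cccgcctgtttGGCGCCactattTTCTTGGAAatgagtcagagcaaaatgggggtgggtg
Hamp2, chr7:30924242-30924301, minus strand: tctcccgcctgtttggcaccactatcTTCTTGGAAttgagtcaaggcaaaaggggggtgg
*Mt1* held 3 metal response elements, at -23, +3 and +21, and *Mt2* held 4, at -223, -128, -50 and +5, the first of which lies before the stretch shown. Of 32851 promoters of this length, 25.7% held at least 1 such motif and 0.517% held at least 4. *Hamp* held the BMP response element at -109 and the STAT motif at -97, which 11.9% and 8.30% of promoters held. *Hamp2*, the neighbouring paralogue, held only the STAT motif, at -94. Of the other members in the table, *Tfrc* held a BMP response element at -89 and 2 overlapping metal response elements at -53 and -50 in 1 of its 2 promoters. None of the 7 members had the E-box CACGTG (7.15% of promoters) or the D-box TTATGTAA (0.938%), the motifs of the clock proteins CLK:BMAL1 and of DBP, in the 300 bases from 250 before to 50 after a start.

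Before the results by gene, a feature of the samples has to be given. Both ZT2 samples, and series 2 at ZT22, had high acute phase mRNAs. The summed level of 12 acute phase genes was 82630 and 77854 rpbp at ZT2 and 50493 rpbp in series 2 at ZT22, against 13243 to 20131 rpbp in the 9 other samples. The serum amyloid mRNA *Saa1* was at 14312 and 12917 rpbp at ZT2, at 5249 rpbp in series 2 at ZT22 and at 57.8 to 233 rpbp elsewhere. At ZT2 the summed Kupffer cell markers were also highest (729 and 734 rpbp, against 379 to 580 rpbp) and the summed hepatocyte markers lowest (97091 and 101288 rpbp, against 139291 to 174501 rpbp), with albumin (*Alb*) mRNA, the bulk of that sum, at 51786 ± 1895 rpbp at ZT2 and 114473 ± 11384 rpbp at ZT14 (SD, n = 2). The hepatocyte markers did not move together: *Apoa1*, *Serpina1a* and *Apob* had their highest mean at ZT2, at 17593, 3880 and 2747 rpbp. Of the 8, *Alb* and *Cps1* were called rhythmic by the criteria given below (19.1% of all genes). Neither was called without both ZT2 samples (F24 0.316 and 0.504, permutation p = 0.268 and 0.0851). *Fabp1* alone was then called (15.1% of all genes), also without series 2 at ZT22 (12.6%). By limma's test among time points 3 of the 8 differed (17.6% of all genes). None did without both ZT2 samples (4.6%) or without series 2 at ZT22 as well (1.69%). No marker of the hepatocyte, Kupffer, endothelial and erythroid lists was at 0 in all samples, and the endothelial sum stayed between 224 and 267 rpbp. Results of the members and counts of the lists that rest on these samples are given with and without them. The part that the acute phase and marker differences play in those results was not tested.

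**Figure D1:**
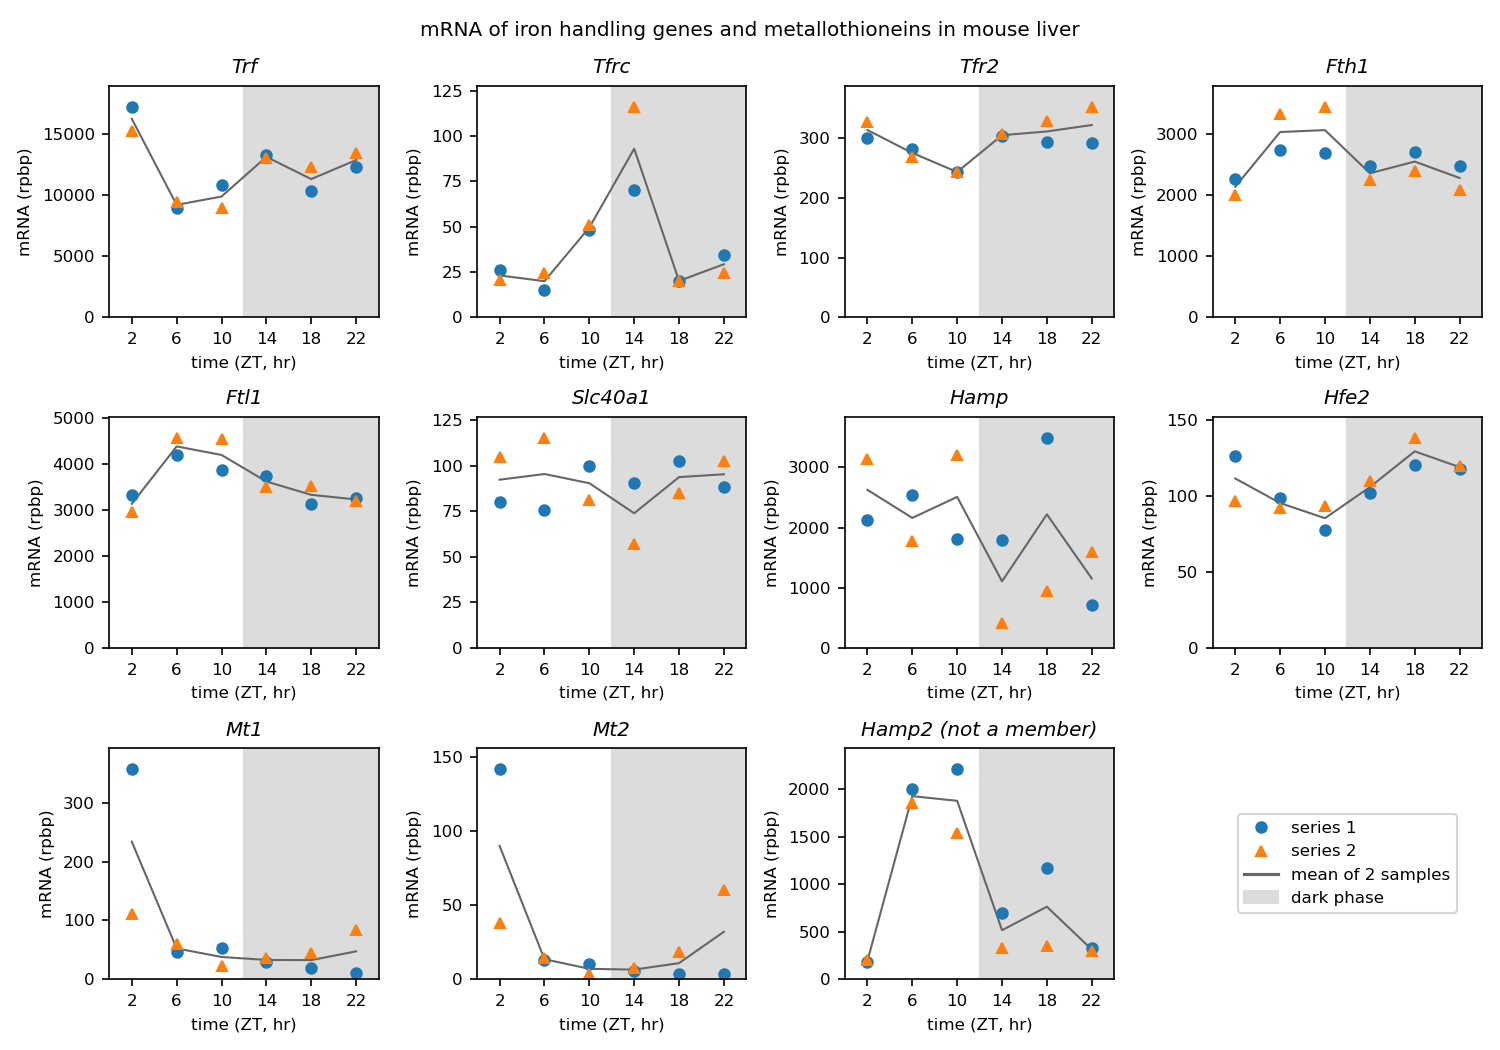
mRNA levels (rpbp, each vertical axis from 0) against time of day (ZT, hr) for the 10 members and *Hamp2*, with series 1 as circles, series 2 as triangles, a line through the mean of the 2 samples and the dark phase in grey. *Tfrc* stands at 69.9 and 116 rpbp at ZT14 against 15.1 to 50.8 rpbp elsewhere, whereas the *Hamp* samples taken at the same time lie up to 2534 rpbp apart.

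A gene was called rhythmic when the share of its variance in a 24 hr cosine (F24) exceeded 0.45, the permutation p of that share was below 0.05, and the amplitude, the highest over the lowest of the 12 values, exceeded 1.5. By these criteria, 1948 of 10198 expressed genes (19.1%) were rhythmic, and 3 of the 10 members were: *Hfe2*, *Tfrc* and *Ftl1*. *Hfe2* also met the stricter limits of a strong rhythm (F24 above 0.6 and a higher amplitude limit), which 7.89% of expressed genes met. With a Benjamini-Hochberg adjustment of the permutation p over all expressed genes, 4.81% of genes remained and none of the members, whose lowest adjusted p was 0.0716 (*Hfe2*). When limma's test of a cosine and a sine replaced the permutation test, 8.11% of genes were called and 1 member, *Hfe2*. The median F24 of the members was 0.391, and that of all expressed genes was 0.310. Patterns of any shape across the 6 time points were tested with limma's F-test on log2(rpbp + 1), which called 1792 genes (17.6%) at an adjusted p below 0.05, among them 2 members, *Tfrc* and *Trf*.

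**Figure D2:**
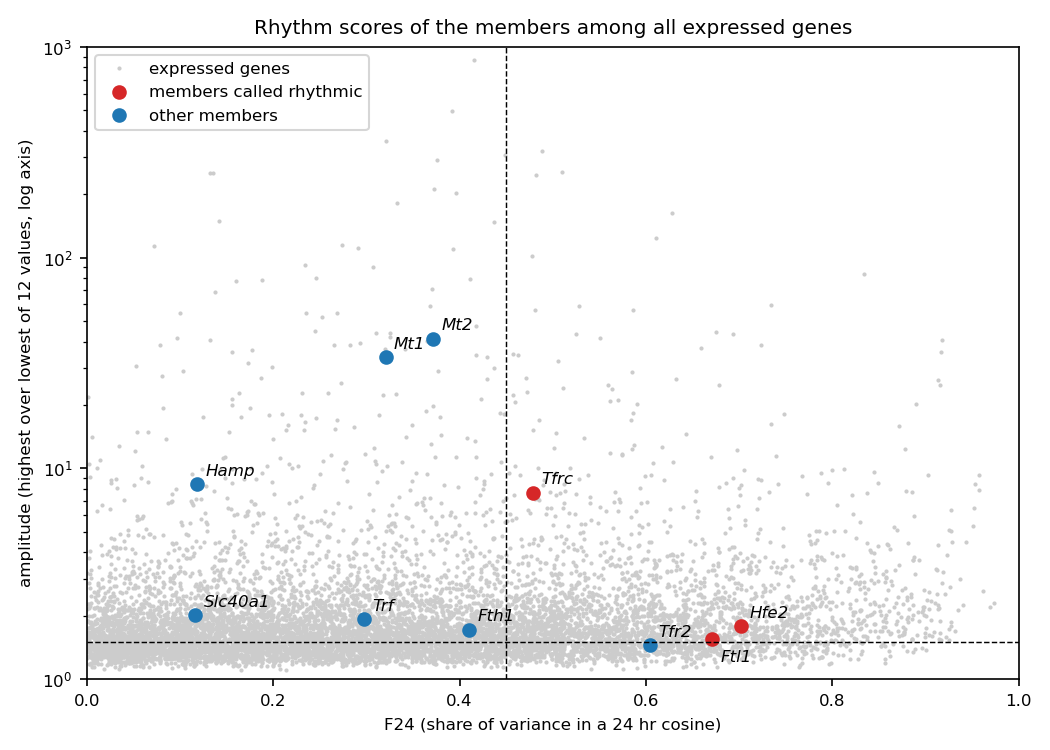
Amplitude (highest over lowest of 12 values, log axis) against F24 (share of variance in a 24 hr cosine) for expressed genes (grey, without those with a value of 0 or beyond the axis) and the 10 members (red when called rhythmic, blue otherwise), with dashed lines at the limits of 1.5 and 0.45. *Mt1* and *Mt2* have amplitudes of 33.7 and 41.2 but F24 of only 0.321 and 0.372, and *Tfr2* lies right of the F24 limit and just under the amplitude limit.

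*Trf* (chromosome 9, 103106331 to 103132774, mm9, minus strand) had the highest level of the members, with a mean of 12096 rpbp and rank 14 among expressed genes. In series 1 and series 2 it was at 17203 and 15269 rpbp at ZT2, 8958 and 9421 rpbp at ZT6, 10807 and 8934 rpbp at ZT10, 13241 and 12998 rpbp at ZT14, 10297 and 12307 rpbp at ZT18, and 12261 and 13452 rpbp at ZT22. Both ZT2 samples lay above all others, 1.44-fold over the mean of the other 10, and the ZT6 and ZT10 samples were among the lowest. Of expressed genes, 10.4% had both ZT2 samples above all others. The levels differed among time points (limma F = 10.5, adjusted p = 0.0204), but the curve was no 24 hr cosine (F24 0.297, permutation p = 0.205), and a larger share of the variance lay in the 12 hr component (0.590). Without both ZT2 samples the F-test gave an adjusted p of 0.126, and without series 2 at ZT22 as well 0.214 (limma), while F24 was 0.524 and 0.558 (permutation p = 0.0906 and 0.110). Leaving out any 1 sample of ZT2 or ZT6 also ended the call, with adjusted p between 0.0562 and 0.0820 (limma). In whole liver, fewer cells of a type and less RNA per cell cannot be told apart. A second *Trf* gene model on the same strand shares 26307 bases with this one, and the table gives 1 value for the symbol. The 3 genes with the most similar course over the 12 samples, out of 8952 with a mean of at least 8 rpbp, were *Cyp7b1* (Pearson r = 0.971 of log2 values), an enzyme of bile acid synthesis, and the complement genes *C8b* (0.970) and *C8a* (0.968).

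*Tfrc* (chromosome 16, 32609006 to 32632880, plus strand), the receptor through which most cells take up transferrin iron, had a mean of only 39.1 rpbp. It was at 25.7 and 20.3 rpbp at ZT2, 15.1 and 24.5 rpbp at ZT6, 48.1 and 50.8 rpbp at ZT10, 69.9 and 116 rpbp at ZT14, 19.8 and 20.1 rpbp at ZT18, and 34.0 and 24.4 rpbp at ZT22. The message was low early in the light phase, higher at ZT10, highest just after lights off, and back at its low level 4 hr later. At ZT14 it was 92.9 ± 32.6 rpbp (SD, n = 2), above all 10 other samples and 3.29-fold over their mean, an order that 3.53% of expressed genes showed at ZT14. *Tfrc* had the clearest difference among time points of the members (limma F = 18.4, adjusted p = 0.00652), which held without both ZT2 samples (0.0238), without series 2 at ZT22 as well (0.0454), and without any other single sample. Its 24 hr component peaked at ZT13.2 (F24 0.478, permutation p = 0.0195, adjusted p = 0.118). F24 was close to the limit, since the peak is narrow and 0.310 of the variance lay in the 12 hr component. Without the ZT14 sample of series 1, F24 fell under the limit (0.416), and without that of series 2 it was 0.476 with a permutation p of 0.0691. Without both ZT2 samples the permutation p was 0.0640, so the rhythm call was lost with fewer samples although F24 was no smaller (0.494). The mRNAs with the most similar course were *Slain2* (r = 0.955), *Pfkfb2* (0.939), an enzyme that controls glycolysis, and *Ncl* (0.916), which encodes the nucleolar protein nucleolin.

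*Tfr2* (chromosome 5, 138011079 to 138028709, plus strand), the liver receptor that senses iron-loaded transferrin, was far more abundant than *Tfrc* on the same per-base scale, with a mean of 295 rpbp. It was at 300 and 328 rpbp at ZT2, 282 and 269 rpbp at ZT6, 243.8 and 243.4 rpbp at ZT10, 304 and 307 rpbp at ZT14, 295 and 329 rpbp at ZT18, and 292 and 353 rpbp at ZT22. Both ZT10 samples lay below all others (4.18% of expressed genes), and all 4 samples of ZT6 and ZT10 lay under the 8 others, at 0.828 of their mean, as was the case for 3.31% of expressed genes. The wave was regular but shallow: F24 was 0.605 with a peak at ZT21.1 (permutation p = 0.0175, adjusted p = 0.112), and over the 12 samples *Tfr2* missed a rhythm call by its amplitude of 1.45, under the limit of 1.5. Its highest value was that of series 2 at ZT22, without which F24 was 0.524, the permutation p 0.0558 and the amplitude 1.35, and without both ZT2 samples as well F24 was 0.590 (permutation p = 0.0693). In series 1 alone F24 was 0.409 (exact p = 0.483), and in series 2 alone 0.927 (exact p = 0.0167). Its 2 samples of a time point differed little, with a median coefficient of variation of 4.76%, against a median of 7.88% over expressed genes. Across the day the ratio of *Tfr2* to *Tfrc* ranged from 2.65 in series 2 at ZT14 to 18.7, with a median of 11.3. *Tfr2* was most similar in course to *Wdr33* (r = 0.920), the growth factor receptor *Fgfr4* (0.916) and *Tnfaip2* (0.913).

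The ferritin mRNAs were among the most abundant of the liver. *Ftl1* (chromosome 7, 52713314 to 52715254, minus strand) had a mean of 3643 rpbp and *Fth1* (chromosome 19, 10057193 to 10059582, plus strand) of 2572 rpbp, ranks 47 and 66. *Ftl1* was at 3312 and 2947 rpbp at ZT2, 4193 and 4557 rpbp at ZT6, 3855 and 4525 rpbp at ZT10, 3735 and 3493 rpbp at ZT14, 3126 and 3523 rpbp at ZT18, and 3263 and 3186 rpbp at ZT22. The 4 samples of ZT6 and ZT10 lay above the 8 others, 1.29-fold over their mean, an order found in 3.09% of expressed genes. *Ftl1* was called rhythmic with F24 0.671 and a peak at ZT8.95 (permutation p = 0.0080, adjusted p = 0.0781), with an amplitude of 1.55 that barely passed the limit. Without the ZT2 sample of series 2 the amplitude was 1.46 and the call was lost. Without both ZT2 samples the wave was as regular (F24 0.819) and the amplitude again 1.46.

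*Fth1* was at 2266 and 2011 rpbp at ZT2, 2744 and 3328 rpbp at ZT6, 2689 and 3446 rpbp at ZT10, 2472 and 2245 rpbp at ZT14, 2703 and 2400 rpbp at ZT18, and 2473 and 2091 rpbp at ZT22. The 24 hr component peaked at ZT9.24, near that of *Ftl1*, with the highest mean at ZT10 for *Fth1* and at ZT6 for *Ftl1*. The series differed more than for *Ftl1*, with peaks at ZT11.5 in series 1 and ZT8.85 in series 2, and F24 was 0.410 (permutation p = 0.0928). The ratio of *Ftl1* to *Fth1* mRNA was between 1.16 and 1.56 in the 12 samples with a median of 1.46, a coefficient of variation of 8.15%, while the levels themselves spanned 1.55-fold and 1.71-fold. The correlation between the pair over the 12 samples was 0.858, with 0.435 in series 1 and 0.986 in series 2. *Fth1* was closest to *Itm2b* (r = 0.955), *Nqo1* (0.954) and *Gpx4* (0.950), and *Ftl1* to *Gstm1* (0.947), *Mipep* (0.942) and *Phb2* (0.938). Ferritin light chain has many processed copies in the genome: 94.9% of the windows of read length in the *Ftl1* transcript match another place with at most 2 mismatches, against 8.22% for *Fth1*. As only sequences with 1 place were counted, the level of *Ftl1*, and its ratio to *Fth1*, are uncertain.

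*Slc40a1* (chromosome 1, 45964915 to 45982439, minus strand), the only known iron exporter, had a mean of 90.1 rpbp. It was at 79.8 and 105 rpbp at ZT2, 75.6 and 115 rpbp at ZT6, 99.5 and 81.1 rpbp at ZT10, 90.6 and 57.1 rpbp at ZT14, 102 and 85.0 rpbp at ZT18, and 88.0 and 102 rpbp at ZT22. Every time point overlapped others, and no rhythm (F24 0.116, permutation p = 0.571) or difference among time points (limma F = 0.621, adjusted p = 0.744) was detected. The series peaked at nearly opposite times: alone, series 1 peaked at ZT15.6 (F24 0.642, exact p = 0.250 over all 720 orders) and series 2 at ZT2.39 (F24 0.830, exact p = 0.0667). The limma interaction of the 24 hr component with series gave F = 8.67 and an adjusted p of 1.00, and called 0 genes (0%) of the table, with 201 (1.97%) at an unadjusted p below 0.05.

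**Figure D3:**
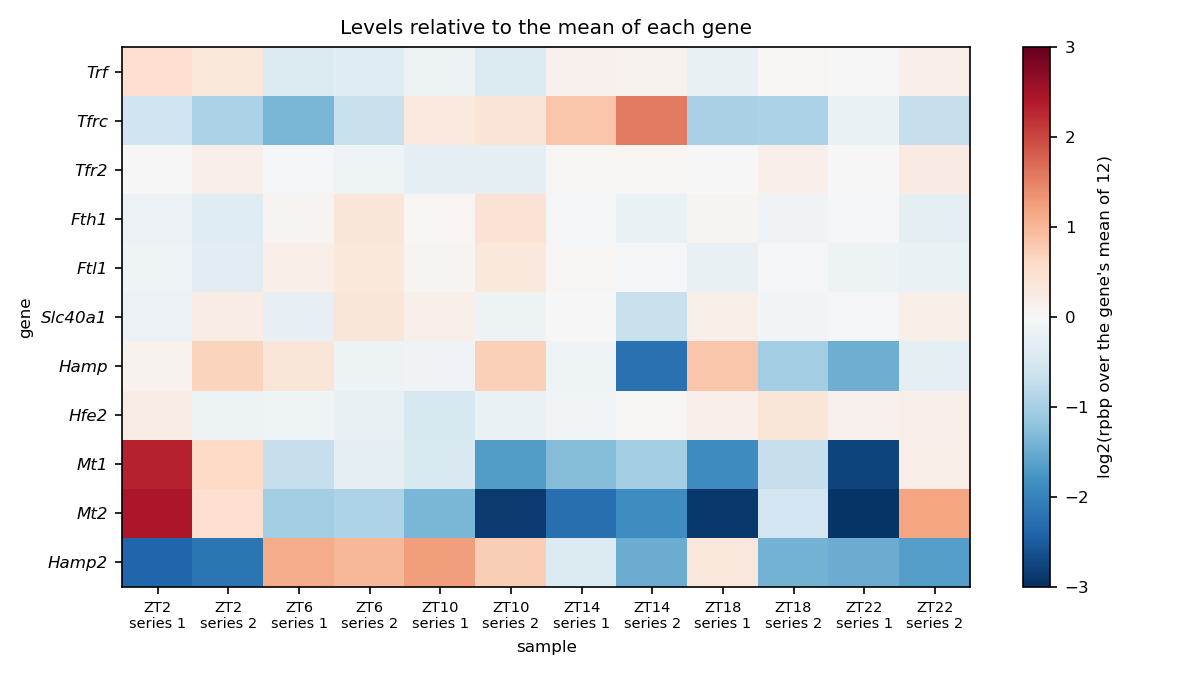
Level of each member and of *Hamp2* in each of the 12 samples, as log2 of its rpbp over the mean of its 12 values (red above, blue below). *Tfr2*, *Hfe2*, *Trf* and the ferritins stay pale, *Tfrc* is reddest at ZT14, and *Mt1* and *Mt2* are high in both ZT2 samples and differ between the 2 samples of ZT22.

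*Hamp* (chromosome 7, 31727390 to 31729036, minus strand), with a mean of 1963 rpbp and rank 93, varied from sample to sample more than from time to time. In series 1 and series 2 it was at 2118 and 3133 rpbp at ZT2, 2542 and 1779 rpbp at ZT6, 1814 and 3203 rpbp at ZT10, 1802 and 414 rpbp at ZT14, 3486 and 952 rpbp at ZT18, and 710 and 1600 rpbp at ZT22. The highest and lowest values, 8.43-fold apart, both fell in the dark phase, and all 6 light phase samples lay between 1779 and 3203 rpbp. Between the 2 samples taken at the same time, the median coefficient of variation was 46.8%, higher than in 98.9% of expressed genes. No rhythm (F24 0.118, permutation p = 0.555) and no difference among time points (limma F = 1.39, adjusted p = 0.431) was detected. The F24 of *Hamp* rested on 1 sample: without the highest, series 1 at ZT18, it was 0.483, above the limit, with a permutation p of 0.0837. *Hamp* is known as an acute phase gene, and a part of the acute phase in its levels was not tested. In the 3 samples with high acute phase mRNAs it was at 2118, 3133 and 1600 rpbp, and the 9 others spanned 414 to 3486 rpbp. Its mean was highest at ZT2, at 2626 ± 718 rpbp (SD, n = 2), with values that overlapped those of other times. Its closest mRNAs were *B230312A22Rik* (r = 0.890), *Enox2* (0.855) and *Msrb2* (0.853). *Slc40a1*, which encodes the target of hepcidin, was at rank 397 of likeness (r = 0.540, with 0.0944 in series 1 and 0.706 in series 2).

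*Hamp2* (chromosome 7, 31707391 to 31709200, minus strand) lies 18189 bases from *Hamp* and encodes a hepcidin-like peptide with no established part in iron control. It is not one of the 10 members and was taken up after its values were seen, because 7.19% of the windows of the *Hamp* transcript match it with at most 2 mismatches. *Hamp2* was at 180 and 205 rpbp at ZT2, 2003 and 1857 rpbp at ZT6, 2216 and 1545 rpbp at ZT10, 701 and 330 rpbp at ZT14, 1175 and 352 rpbp at ZT18, and 330.0 and 294 rpbp at ZT22. Its 4 samples of ZT6 and ZT10 lay above all others and both ZT2 samples below all others (9.58% of expressed genes), and the levels differed among time points (limma F = 13.7, adjusted p = 0.0122). The limma adjusted p was 0.0685 without both ZT2 samples, and without series 2 at ZT22 as well 0.153. *Hamp2* was called rhythmic over the 12 samples (F24 0.585, peak at ZT8.83, permutation p = 0.0321, adjusted p = 0.153) and in both of these settings (F24 0.721 and 0.701, permutation p = 0.0233 and 0.0432). The ratio of *Hamp* to *Hamp2* went from 0.819 in series 1 at ZT10 to 11.8 and 15.3 at ZT2. The neighbours thus had different courses in the same samples (r = 0.374 over 12 samples).

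*Hfe2* (chromosome 3, 96329108 to 96333139, plus strand) had a mean of 108 rpbp. It was at 126 and 97.1 rpbp at ZT2, 98.8 and 92.2 rpbp at ZT6, 77.7 and 93.4 rpbp at ZT10, 102 and 110 rpbp at ZT14, 121 and 138 rpbp at ZT18, and 118 and 120 rpbp at ZT22. The mean was lowest late in the light phase, at 85.5 ± 11.1 rpbp at ZT10, and highest in the dark phase, at 130 ± 12.4 rpbp at ZT18 (SD, n = 2). F24 was 0.702 with a peak at ZT20.4 (permutation p = 0.0063, adjusted p = 0.0716), the highest F24 of the members. The call remained without both ZT2 samples, and without series 2 at ZT22 as well (F24 0.807, permutation p = 0.0086). In series 1 alone F24 was higher (0.822), but the exact p over 6 values was 0.1. The F-test over time points was not passed (limma F = 4.33, adjusted p = 0.0971). Its course was most like that of the small heat shock gene *Hspb1*, which the table also lists as Hsp25 (r = 0.955 and 0.963), and of *Cgn* (0.940), a protein of tight junctions. Among the members *Tfr2* came nearest (r = 0.709, rank 214).

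*Mt1* and *Mt2* sit side by side on chromosome 8 (*Mt1* 96702989 to 96704225, *Mt2* 96696518 to 96697467, both plus strand), 5521 bases apart. *Mt1* was at 358 and 110 rpbp at ZT2, 45.3 and 59.1 rpbp at ZT6, 52.7 and 22.6 rpbp at ZT10, 29.4 and 35.8 rpbp at ZT14, 19.6 and 44.9 rpbp at ZT18, and 10.6 and 83.8 rpbp at ZT22. *Mt2* was at 142 and 37.9 rpbp at ZT2, 12.8 and 14.04 rpbp at ZT6, 10.2 and 3.64 rpbp at ZT10, 5.52 and 7.28 rpbp at ZT14, 3.56 and 17.96 rpbp at ZT18, and 3.44 and 60.5 rpbp at ZT22. For each gene the highest values were those of series 1 at ZT2, series 2 at ZT2 and series 2 at ZT22, which are also the 3 samples with high acute phase mRNAs. How many of all expressed genes share this order was not counted. Of these 3 samples, series 1 at ZT2 was the highest for *Mt1*, *Mt2* and *Saa1*, and *Mt2* was higher in series 2 at ZT22 than in series 2 at ZT2.

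The mean of *Mt1* at ZT2 was 234 ± 175 rpbp (SD, n = 2), 5.79-fold over that of the 10 other samples. Both ZT2 samples lay above all others, as in 10.4% of expressed genes. Without series 1 at ZT2 the fold was 2.73, and without series 2 at ZT2 it was 8.85. *Mt2* at ZT2 overlapped ZT22. Over the 12 samples the amplitudes of 33.7 and 41.2 were the largest of the members, but they were 10.4 and 17.6 without series 1 at ZT2. In series 2 alone that of *Mt1* was 4.88, below *Hamp* (7.74) and *Tfrc* (5.77). *Mt2* still had the largest amplitude of the members in series 2, from 3.64 rpbp at ZT10 to 60.5 rpbp at ZT22. The spread between the 2 samples of a time point was also the largest, with median coefficients of variation of 56.0% and 74.4%. Neither gene met the F24 limit (0.321 for *Mt1*, permutation p = 0.0380, and 0.372 for *Mt2*, permutation p = 0.0393) or passed the F-test (limma adjusted p = 0.198 and 0.242). Without the 3 samples with high acute phase mRNAs, *Mt1* ranged from 10.6 to 59.1 rpbp and *Mt2* from 3.44 to 17.96 rpbp, and F24 was 0.329 and 0.0795 (permutation p = 0.289 and 0.770). *Mt2* was called rhythmic in series 2 alone (F24 0.854, exact p = 0.0167, the smallest that 720 orders can give) and without the ZT22 sample of series 1 (F24 0.508, permutation p = 0.0036).

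The metallothionein mRNAs followed each other: each was the gene most similar to the other among 8952 (r = 0.947 over 12 samples, 0.976 in series 1 and 0.927 in series 2). *Mt1* exceeded *Mt2* in every sample, by 1.39-fold in series 2 at ZT22 to 6.20-fold in series 2 at ZT10, with a median of 3.88. The next genes were *Arhgdia* (0.910) and *Plac8* (0.892) for *Mt1*, and AK181830 (0.919) and *Pbxip1* (0.905) for *Mt2*.

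No member was called different between the series. The time-matched difference of series 2 minus series 1 was largest for *Mt2* (log2 difference 0.53 ± 0.694, SE) and *Hamp* (-0.33 ± 0.467), and limma adjusted p was at least 0.993 for all 10. Over the table, 0% of genes were called in either direction at an adjusted p below 0.05 by limma, and 426 (4.18%) had an unadjusted p below 0.05.

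The other genes of the pathway were taken as lists. Of 17 genes that control hepcidin through BMP and SMAD, 15 were expressed, with *Bmp6* and *Smad6* under the minimum. None of the 15 was called rhythmic (19.1% of all genes), and none was called different among time points by limma (17.6%). Their median F24 was 0.232, and their median amplitude was 1.40, against 1.64 for all expressed genes. *Hfe* missed a call by its permutation p of 0.0527 alone, with F24 0.482 and an amplitude of 1.93. *Tmprss6*, the liver protease that cleaves hemojuvelin, had the highest F24 of the list (0.688, permutation p = 0.0072) and a mean of 379 rpbp. Its amplitude of 1.23 was under the limit, from 344 ± 3.56 rpbp at ZT10 to 408 ± 18.1 rpbp at ZT22 (SD, n = 2). The lowest level at ZT10 is that of *Hfe2* and *Tfr2* too. *Id1*, a direct target of BMP signals, had the largest amplitude of the list, 7.14, with F24 0.117, where *Hamp* had 8.43 and 0.118. The next largest amplitude of the list was 2.92, for *Atoh8*.

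Of 16 genes of iron uptake, transport and export, 13 were expressed and 8 were called rhythmic, where 19.1% of all expressed genes were. Of the 8, 2 had an adjusted permutation p below 0.05, and the median F24 of the list was 0.500. Without both ZT2 samples 4 remained (*Slc11a2*, *Slc39a8*, *Steap3* and *Lrp1*, with 15.1% of all genes called), and without series 2 at ZT22 as well 5 were called (12.6%), *Slc11a2*, *Slc39a8* and *Steap3* together with *Slc39a14* and *Steap4*, which were not called over the 12 samples. The cell surface transporter *Slc39a8* peaked at ZT22.2 (F24 0.8998, permutation adjusted p = 0.0167), between 17.8 ± 0.622 rpbp at ZT10 and 26.8 ± 0.962 rpbp at ZT22. The endosomal ferrireductase *Steap3* peaked at ZT22.8 (F24 0.841, permutation adjusted p = 0.0346), from 14.7 ± 2.74 rpbp at ZT10 to 26.9 ± 0.0566 rpbp at ZT2. *Slc11a2*, which carries ferrous iron across membranes, peaked at ZT21.0 (F24 0.710, permutation adjusted p = 0.0747), from 18.04 ± 0.170 rpbp at ZT6 to 35.3 ± 3.87 rpbp at ZT2. *Lrp1*, the receptor for heme bound to hemopexin, peaked at ZT23.5 (F24 0.653, permutation adjusted p = 0.0781), while the mitochondrial iron importer *Slc25a37* had an opposite phase (peak at ZT11.2, F24 0.532, permutation adjusted p = 0.165). The other 3, *Cp*, *Hp* and *Lcn2*, belong to the acute phase list too and were highest in both ZT2 samples: *Hp* was 18299 ± 1362 rpbp at ZT2 and 3869 ± 291 rpbp at ZT10. The heme carrier *Hpx*, with 17740 ± 1055 rpbp at ZT2 and 3739 ± 662 rpbp at ZT6, differed among time points by limma without being called rhythmic, as did *Steap4*. By limma 8 of the 13 differed among time points (17.6% of all genes), 1 (*Slc11a2*) without both ZT2 samples (4.6%) and none without series 2 at ZT22 as well (1.69%).

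Of the genes for cellular iron sensing and storage, 1 of 10 expressed genes was called rhythmic (19.1% of all genes), *Aco1*, which encodes iron regulatory protein 1. It peaked at ZT13.2 (F24 0.644, permutation p = 0.0042, adjusted p = 0.0592), from 116 ± 5.12 rpbp at ZT2 to 188 ± 3.22 rpbp at ZT14 (SD, n = 2), and had its highest mean at the same time point as *Tfrc*. Without both ZT2 samples, where it was lowest, the *Aco1* call was lost (F24 0.489, permutation p = 0.0785). *Ireb2*, for iron regulatory protein 2, differed among time points (limma) but was highest at ZT6, at 66.0 ± 0.792 rpbp, and lowest at ZT14, at 49.3 ± 1.36 rpbp. The ferritin iron chaperone *Pcbp2* had its maximum and minimum at the same time points as *Ireb2* (138 ± 3.08 and 82.6 ± 4.13 rpbp) and also differed among time points (limma), whereas *Pcbp1*, the most abundant gene of the list at 278 rpbp, was not called. By limma 3 of the 10 differed among time points (17.6% of all genes), and none without both ZT2 samples (4.6%). *Ncoa4*, the receptor that takes ferritin to autophagy, had a mean of 161 rpbp and F24 0.499 (permutation p = 0.0451). It missed a rhythm call by its amplitude of 1.32, and without both ZT2 samples F24 was 0.226 (permutation p = 0.423).

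Of 9 expressed zinc genes, 2 were called rhythmic, a share close to the 19.1% of all expressed genes. The same 2 were called without both ZT2 samples (15.1% of all genes) and without series 2 at ZT22 as well (12.6%). By limma 3 of the 9 differed among time points (17.6% of all genes). Without both ZT2 samples 1 did, *Slc30a10* (4.6%), and the same 1 without series 2 at ZT22 as well (1.69%). *Slc30a10*, a manganese exporter of the zinc transporter family, had the strongest rhythm of all genes listed here (F24 0.951, permutation adjusted p = 0.0146), rising from 19.1 ± 5.52 rpbp at ZT10 to 74.3 ± 9.19 rpbp at ZT22. *Slc30a1*, a zinc exporter of the plasma membrane, peaked at ZT19.6 (F24 0.656, permutation adjusted p = 0.0362), from 32.3 ± 4.30 rpbp at ZT10 to 47.3 ± 6.56 rpbp at ZT18 (SD, n = 2). The metal sensor *Mtf1* itself was at 10.1 rpbp and was not called (F24 0.140).

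**Figure D4:**
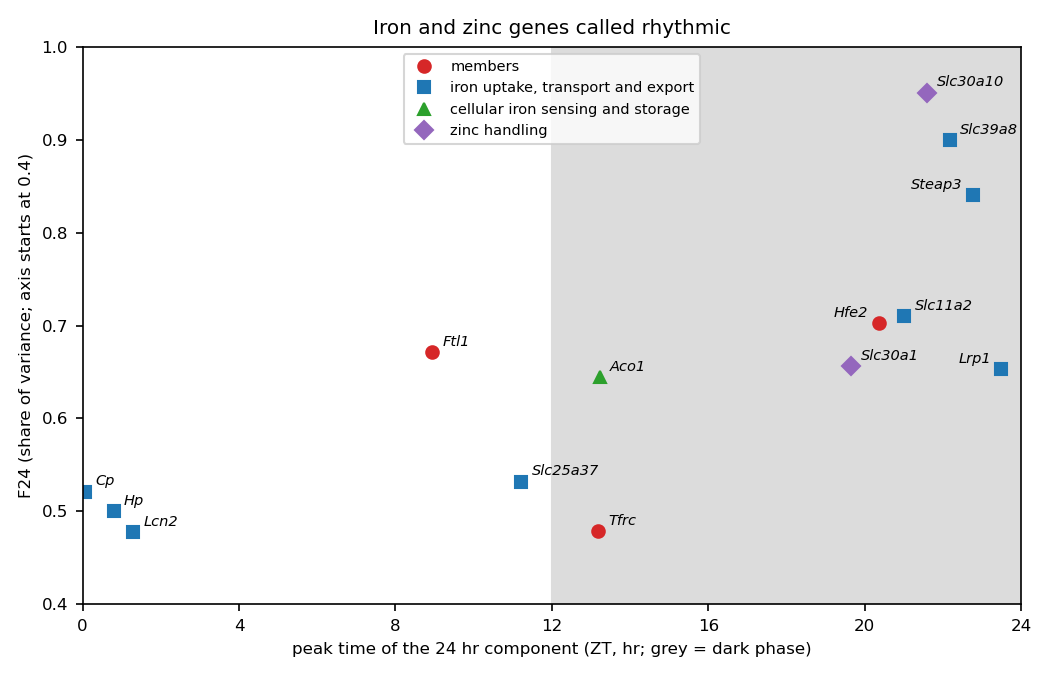
F24 (vertical axis from 0.4) against the peak time of the 24 hr component (ZT, hr; dark phase in grey) for the genes called rhythmic among the members and the iron and zinc lists, with 1 marker shape for each list. *Slc39a8*, *Steap3*, *Slc11a2*, *Slc30a10*, *Slc30a1* and the member *Hfe2* peak between ZT19.6 and ZT22.8, *Tfrc* and *Aco1* both at ZT13.2, and *Ftl1* at ZT8.95.

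Of the lists for other inputs known to act on metallothionein genes, 5 of 9 expressed glucocorticoid response genes were called rhythmic (19.1% of all genes): *Fkbp5*, *Tsc22d3*, *Sgk1*, *Per1* and *Zbtb16*, of which 4 peaked in the dark phase and *Per1* in the light phase. All but *Zbtb16* were also called without both ZT2 samples, and without series 2 at ZT22 as well, 4 of 9 in each case (15.1% and 12.6% of all genes). At ZT2 most of the list was low. *Fkbp5* was at 14.8 ± 0.679 rpbp, 0.416 of the mean of the other samples. *Per1* was at 0.107 and *Tat* at 0.664 of that mean, and both ZT2 samples of these genes lay below all others (9.58% of expressed genes). *Tsc22d3* (0.455), *Zbtb16* (0.516) and *Dusp1* (0.709) were under the mean with overlap. *Errfi1*, at 1042 ± 55.9 rpbp, was 1.37-fold over it, *Cdkn1a* 1.35-fold and *Sgk1* 1.08-fold, also with overlap. Of 12 acute phase genes, 6 were called rhythmic (19.1% of all genes), *Saa1*, *Saa2*, *Lcn2*, *Hp*, *Cp* and *Fgb*, all with a peak in the light phase and none with an adjusted permutation p below 0.05. By limma 9 differed among time points (17.6% of all genes). With both ZT2 samples left out, 1 of the 12, *Fgb*, was called rhythmic (15.1% of all genes) and none differed by limma (4.6%). The same held without series 2 at ZT22 as well (12.6% and 1.69% of all genes). Of 3 expressed erythroid markers none was called, and their summed level (6 genes) was between 353 and 1174 rpbp, highest in series 2 at ZT10. Of 8 expressed Kupffer cell markers, 1 was rhythmic (*Cd5l*, highest at ZT2), and none of 8 endothelial markers was (19.1% of all genes). The *Cd5l* call was lost without both ZT2 samples (F24 0.362, permutation p = 0.213), which left 0 of the 8 (15.1% of all genes).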

How the data were processed

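The authors sequenced TruSeq poly(A) libraries of 12 liver samples, mapped them with TopHat to mm9 (CASAVA 1.8 and TopHat in the submitters' processing notes), kept sequences with 1 place, and divided the coverage over the exons of a gene by their length, without regard to strand. The deposited signal is this coverage in rpbp per 10000000 uniquely mapped sequences. It is no read count, so no counting interval is given. The deposited F24 score (a fraction), phase and p-value are the authors' own results and were not used. Columns named ZT20 were taken as ZT22, the time in the sample labels.

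The signal was multiplied by 4, to 40000000 sequences. F24, phase and a permutation p (10000 random orders, seed 1) were computed from the 12 values. limma compared time points, and series with time as a factor. P-values were adjusted by Benjamini-Hochberg over 10198 genes. Likeness is Pearson's r of log2(rpbp + 1), a description over 12 samples that share time points. The named genes are all members, the rhythmic genes of each list and at most 4 abundant ones, and 3 genes of highest likeness per member. *Id1*, *Hfe*, *Atoh8*, *Tmprss6*, *Mtf1*, *Ireb2*, *Ncoa4*, *Steap4*, *Errfi1* and *Apob* were partly singled out after their values were seen. Members and lists were chosen with earlier results of these data known. The correlation of replicate differences between time points was between -0.153 and 0.206, so the numbers of the series do not pair samples. No 2 samples were identical. The tools were limma 3.58.1 in R 4.3.3, and numpy 2.4.6, pandas 2.3.3 and matplotlib 3.10.9 in Python 3.11.15. Alternatives were other expression minimums, pseudocounts and scalings, adjusted p, limma in place of F24, amplitudes of time-point means, each series or sample left out, and a series block.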

Additional observations from a re-analysis of the deposited data

How the results depend on the processing

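With 2 samples per time point, single samples weigh heavily, and coverage without counts leaves the depth of low genes such as *Mt2* open. No called result reversed its direction. The series comparison called 0 genes in all 8 alternatives, and its differences, none of them called, changed sign in at least 1 of these for every member but *Tfr2* (*Mt2* -0.12 to 1.01, *Hamp* -0.62 to 0.03). The count of 1948 rhythmic genes was 491 with the adjusted p and 827 with limma, 369 and 286 with a series left out (1603 to 2012 with 1 sample left out), and 1290 without both ZT2 samples and series 2 at ZT22. The 3 members called became 0 with the adjusted p, 1 with limma (*Hfe2*), 0 to 4 with a series or a sample left out, and 1 without both ZT2 samples, with or without series 2 at ZT22. These last settings were chosen after seeing the data. The 1792 genes that differed among time points became 724 to 1676 with 1 sample left out (724 and 757 without a ZT2 sample, 866 and 888 without a ZT6 sample, 1191 without series 2 at ZT14), 469 without both ZT2 samples and 172 without series 2 at ZT22 as well. Of the members, 2 differed, and 1 to 3 with 1 sample left out. In both settings without ZT2, 1 (*Tfrc*) remained. *Ftl1* passed limma's F-test with a minimum of 16 rpbp (adjusted p = 0.0436) or size factors (0.0393), and *Mt1* without series 2 at ZT22 (0.0480). *Ftl1* lost its rhythm call with the amplitude of time-point means (1.40) or with limma (adjusted p = 0.0577). The cause of these changes was not tested beyond the samples left out. With the series as a replicate block, which the numbers do not support as a pairing, 1779 genes and the 3 members were rhythmic, and 1395 genes and 2 members differed among time points.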
